A study of Mus musculus with 4 samples.

Results

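The genes described here are the heat shock proteins and J-domain chaperones of mouse DN4 thymocytes, taken as every gene whose symbol begins with Hspa, Hspb, Hspd, Hspe, Hsph, Hsp90 or Dnaj, apart from Hspbap1 and Hspbp1. They number 70 of the 19938 genes that have at least 1 probe set annotated to a single gene symbol, and the probe set with the highest mean stands for each gene. Expression was measured in sorted DN4 cells, the last thymocyte stage before CD4 and CD8 appear, from 4 mice whose Ikzf1 alleles, which encode the transcription factor Ikaros, were floxed, on 1 Affymetrix array per mouse. Mice 129 and 135 (Cre+) were Ikf/f Rosa26-CreERT2+ and mice 131 and 137 (Cre-) were Ikf/f without the recombinase. Both groups carried the floxed alleles and, per the series' design text, received tamoxifen, which the labels give as 50 mg/kg a day for 4 days, with analysis 24 h after the last dose. The treatment label of every sample names only the Cre+ genotype, and no age of the mice is stated in these sources. Rosa26 is active in most cell types, so deletion need not have been limited to thymocytes. Because the Cre- mice lacked the recombinase, loss of Ikaros and activity of the recombinase cannot be told apart.

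HSP70 proteins bind unfolded stretches of other proteins in a cycle driven by ATP. J-domain proteins bring the substrates and stimulate the ATPase, HSP110 proteins exchange the nucleotide, and HSP90 takes over clients such as kinases and steroid receptors. Most cells make the constitutive members all the time, while heat shock factor 1 (HSF1) induces others within minutes of heat, handling or other protein-damaging stress, and a separate unfolded protein response raises those of the endoplasmic reticulum.

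The members were read by role and by class. By role there were 10 members of the HSP70 family, 3 of the HSP110 family, 2 of the HSP90 family, the 2 mitochondrial chaperonin genes, 8 small heat shock proteins, 4 DNAJA, 13 DNAJB and 28 DNAJC genes. By class, 11 were taken as heat-inducible, 25 as constitutive and 8 as endoplasmic reticulum (ER) members, with Dnajc1 in both of the last, and 27 belonged to no class. Hspa1b and Hsp90ab1, which the class lists also name, were not analysed here as members because no probe set annotated to them alone was used.

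Promoter sequence was examined as a feature of the members that does not use the expression values. HSF1 binds heat shock elements, inverted repeats of GAA and TTC, searched here as GAANNTTC or TTCNNGAA on both strands. RefSeq promoter windows (GRCm38.p6, from 250 bases before to 50 after an annotated transcript start) were matched for 57 of the 70 members. At least 1 such pair lay in a window of 9 of the 10 matched heat-inducible genes and of 1 of the 20 matched constitutive genes, which was Dnajb6. Over windows the shares were 58.8% of 17 and 8.33% of 24, against 15.1% of all 32851 windows. The longer element of 3 alternating units, GAA, TTC and GAA with 2 bases between each, which overlaps the pairs, was found in 4 of the 17 heat-inducible windows (3 genes), in 2 of the 24 constitutive windows (Dnajb6 alone) and in 0.603% of all windows. The ER stress element, CCAAT and CCACG with 9 bases between them, bound during the unfolded protein response, lay in the windows of 3 of 7 matched ER members, of none of the matched heat-inducible or constitutive genes, and in 0.119% of all windows. A match describes letters in a window and is not a measured binding site. The upstream part of 6 windows is shown, because these genes carry the elements and their values are given one by one below, 5′ to 3′ on the gene's own strand. Capitals mark heat shock pairs in the first 3 and the ER stress element in the last 3.
Hspa1a (chr17:34972157-34972406, minus strand): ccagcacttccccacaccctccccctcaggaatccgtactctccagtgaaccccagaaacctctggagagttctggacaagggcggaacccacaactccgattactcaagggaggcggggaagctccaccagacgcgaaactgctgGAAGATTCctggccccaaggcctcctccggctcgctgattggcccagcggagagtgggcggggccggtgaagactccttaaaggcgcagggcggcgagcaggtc
Hspd1 (chr1:55087933-55088182, minus strand): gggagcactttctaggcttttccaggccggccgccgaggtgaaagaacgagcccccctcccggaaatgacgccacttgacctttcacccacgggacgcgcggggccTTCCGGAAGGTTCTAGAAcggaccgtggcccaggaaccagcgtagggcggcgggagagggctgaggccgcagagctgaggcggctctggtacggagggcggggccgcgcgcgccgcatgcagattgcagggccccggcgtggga
Hsph1 (chr5:149636316-149636565, minus strand): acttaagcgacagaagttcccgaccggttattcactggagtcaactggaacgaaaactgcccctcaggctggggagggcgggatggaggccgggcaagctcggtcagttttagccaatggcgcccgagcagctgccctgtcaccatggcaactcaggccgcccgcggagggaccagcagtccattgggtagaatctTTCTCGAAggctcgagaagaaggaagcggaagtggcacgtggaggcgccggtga
Hspa5 (chr2:34771840-34772089, plus strand): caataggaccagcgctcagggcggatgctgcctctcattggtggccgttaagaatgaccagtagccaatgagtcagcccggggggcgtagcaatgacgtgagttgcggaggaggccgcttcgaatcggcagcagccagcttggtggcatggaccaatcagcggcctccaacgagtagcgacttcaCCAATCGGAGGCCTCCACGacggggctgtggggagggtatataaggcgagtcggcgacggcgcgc
Hsp90b1 (chr10:86705445-86705694, minus strand): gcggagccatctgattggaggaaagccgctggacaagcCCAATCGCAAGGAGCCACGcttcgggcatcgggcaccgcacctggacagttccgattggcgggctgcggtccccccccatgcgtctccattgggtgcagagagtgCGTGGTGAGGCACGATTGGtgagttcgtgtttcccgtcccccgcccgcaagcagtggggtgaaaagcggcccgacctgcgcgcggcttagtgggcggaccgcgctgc
Dnajc3 (chr14:118937682-118937931, plus strand): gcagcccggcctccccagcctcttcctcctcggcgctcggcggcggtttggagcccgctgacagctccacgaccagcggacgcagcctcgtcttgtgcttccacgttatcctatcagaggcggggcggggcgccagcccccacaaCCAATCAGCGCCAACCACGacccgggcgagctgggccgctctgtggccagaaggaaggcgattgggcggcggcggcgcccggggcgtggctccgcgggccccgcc

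In Hspa1a the pair GAAGATTC lay at positions -104 to -97 from the start. The 18 bases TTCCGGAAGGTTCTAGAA of Hspd1 hold 3 overlapping pairs. Hspd1 and Hspe1 are neighbours read in opposite directions, and the same bases appear in the Hspe1 window as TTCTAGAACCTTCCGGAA. Hsph1 had, besides TTCTCGAA at positions -54 to -47 of the window shown, the longer element TTCTGGAAAGTTC at positions 16 to 28. Hsp90b1 held 2 ER stress elements, on opposite strands.

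Ikzf1 itself read 12.06 and 11.99 in Cre+ against 12.07 and 12.11 in Cre-, a difference of -0.07 (SE 0.04; limma adjusted p = 0.768 among probe sets with 1 gene symbol). The sources used here do not place its probe set relative to the floxed part, so this value does not check the labels; the design text reports loss of the protein by western blot. The arrays were of like overall level, with medians between 6.85 and 6.88 on the log2 scale, and the sorted cells carried the markers of T cell precursors. The 10 measured T cell precursor markers averaged between 11.10 and 11.30 on the 4 arrays, Cd3e among them at 12.84 to 13.16. Of these 10, 4 passed limma's test among probe sets with 1 gene symbol, all higher in Cre+, where 1.22% of probe sets passed. Means were higher in Cre+ for 7 and lower for 3, with differences between -0.52 and 0.66. Signal over background was not analysed, and values of different genes come from different probes and are not ranked against each other. By the Y-linked genes, of which Kdm5d read 5.27 and 5.02 in mice 129 and 131 and 8.61 and 8.85 in mice 135 and 137, each group held 1 female-type and 1 male-type array. Each gap between mice of one group therefore also sets one sex against the other, and sex and mouse-to-mouse spread cannot be told apart in it. In these sorted cells, fewer cells with a transcript and less transcript per cell cannot be told apart.

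No chaperone gene passed the test of Cre+ against Cre-. With limma, 0 of the 70 members had an adjusted p below 0.05 in the fit on all 35556 probe sets (background 0.00%), and 0 passed in a second fit on the 21789 probe sets with 1 gene symbol, where 1.22% of probe sets passed (0.936% higher and 0.285% lower in Cre+). At an unadjusted p under 0.05 there were 2 of 70 members, against 6.86% of all genes. The median difference of the members was -0.01 on the log2 scale, the same to that precision as over all genes. Values of the groups did not overlap for 22 members (31.4%), 9 with higher and 13 with lower values in Cre+, against 36.4% of all genes (16.1% higher and 20.3% lower). The difference between groups was larger than both gaps between mice of one group in 12 members (17.1%), against 4994 of the 19938 genes. With 2 mice against 2, the smallest p of an exact two-sided permutation test is 0.333.

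**Figure D1:**
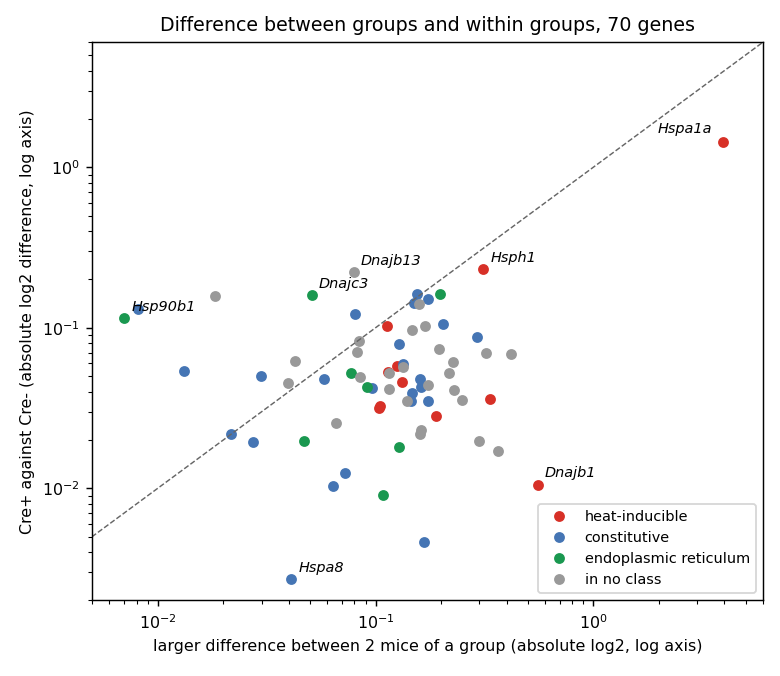
Each point is 1 of the 70 genes; the vertical axis is the absolute log2 difference between the Cre+ and Cre- means, the horizontal axis the larger of the 2 absolute log2 gaps between mice of one group, both on log axes, with a dashed line of equality. The 12 genes above the line include Hsp90b1, Dnajc3 and Dnajb13, and all 11 heat-inducible genes lie below it, with Hspa1a far to the right.

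Gaps between mice of one group, which are also gaps between sexes, were wider in heat-inducible than in constitutive members. The heat-inducible median gap was 0.12 between the Cre+ mice and 0.11 between the Cre- mice, against 0.06 and 0.06 for constitutive members and 0.07 and 0.09 for all genes, a difference that was not tested. For 0 of the 11 did the group difference exceed the larger gap. Their median group difference was -0.03, with 3 higher and 8 lower means in Cre+, and that of the constitutive members -0.01, with 11 higher and 14 lower. Without mouse 129 the heat-inducible median was 0.01 and without mouse 135 it was -0.11. The array with the lowest value was 129 or 131, both low in the Y-linked genes, for 9 of the 11 heat-inducible, 20 of the 25 constitutive and 51 of all 70 members, against 50.7% of all genes. Within that pair the heat-inducible median of Cre+ minus Cre- was -0.11, and between mice 135 and 137 it was -0.01. The sign was the same within both sexes for 34 of the 70 members (48.6%), against 53.9% of all genes.

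Hspa1a, the main stress-induced HSP70, showed one value unlike all others. It was at 11.51 and 12.14 in Cre+ mice 129 and 135, at 8.43 in Cre- mouse 131 and at 12.36 in Cre- mouse 137. Mouse 131 was low and the other Cre- mouse was the highest, so the groups overlapped. Means were 11.82 ± 0.45 in Cre+ and 10.40 ± 2.78 in Cre- (SD, n = 2 each). Mouse 131 minus the mean of the other 3 was -3.58, or 11.9-fold lower, and mouse 137 was 15.3-fold above mouse 131. The difference of mouse 131 from mouse 137 was -3.93, and that of mouse 129 from mouse 135 was -0.63. A second probe set, annotated to both Hspa1a and its near-identical neighbour Hspa1b, read 11.69 and 12.23 in the Cre+ mice, 9.07 in mouse 131 and 12.57 in mouse 137. Both probe sets thus gave the same order of the 4 arrays, and the shared probe set does not separate the 2 genes.

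Between groups Hspa1a differed by 1.43 (SE 1.26 over all probe sets and 0.99 among those with 1 gene symbol, where limma adjusted p = 0.830). Without mouse 131 the difference was -0.54 (SE 0.26), the opposite direction. Without mouse 137 it was 3.40 (SE 0.26 over all probe sets, 0.19 among those with 1 gene symbol; limma adjusted p = 0.141 and 2.70e-05). In that last fit the Cre- arm is mouse 131 alone, which is assumed to vary like the 2 Cre+ mice, so the p restates that array's low value and is no replicated difference. The sign of the group difference thus depended on which control was kept. Within sexes, mouse 129 minus mouse 131 was 3.08 and mouse 135 minus mouse 137 was -0.22. Among all 19938 genes Hspa1a had the 4th largest range over the arrays, and no gene lay further below the other 3 arrays in mouse 131. The next in that order were Eif2s3y, Uty and Kdm5d, which are Y-linked. Mice 131 and 129, both low in these, held the 2 lowest Hspa1a values, 8.43 and 11.51, and the part of sex in the value of mouse 131 was not tested.

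**Figure D2:**
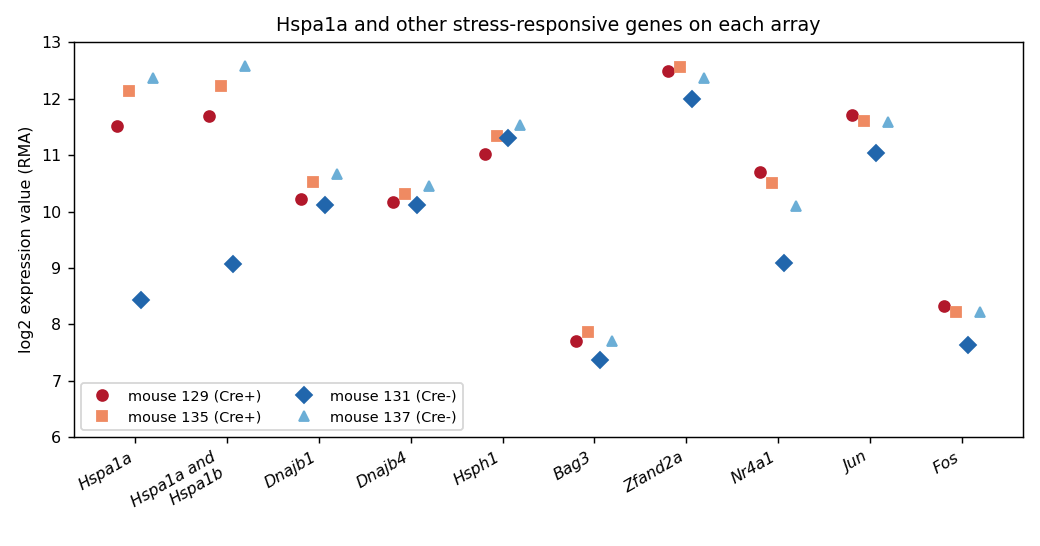
Log2 RMA values on the 4 arrays, 1 point per mouse, for selected heat-inducible members, HSF1 targets and immediate early genes, which do not stand for their lists. Over the full lists mouse 131 was lowest for 4 of 11 heat-inducible members and 2 of 11 HSF1 targets outside the families. It was lowest for 20 of 26 immediate early genes. Mouse 131 (diamonds) is at 8.43 for Hspa1a and 9.07 for the shared Hspa1a and Hspa1b probe set, is the lowest array for the other genes drawn except Hsph1, and differs there by less, with Nr4a1 the widest.

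Only 1 of the 70 members was more than 0.5 below the other arrays in mouse 131, and this was Hspa1a (0.838% of all genes were). Dnajb1, the J-domain partner induced together with HSP70, came next among the members. It read 10.22 and 10.53 in Cre+ mice, 10.11 in mouse 131 and 10.66 in mouse 137. Mouse 131 minus the mean of the other 3 was -0.36, and the groups differed by -0.01 (SE 0.21). Dnajb4, a related heat-inducible J-domain protein, was at 10.16 and 10.32 in Cre+ and at 10.11 and 10.44 in Cre-. The order of the arrays in Hspa1a, from low to high 131, 129, 135 and 137, was also that of Dnajb1 and Dnajb4. But it was held by 10 of the 70 members (14.3%) and by 5.12% of all genes. Hspa8 was among the 10 on the probe set that stands for it. Its further probe sets annotated to it alone were lowest in mouse 129, at 13.67 and 13.62, with group differences of -0.01 each.

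Other heat-inducible members were lowest in mouse 129. Hsph1, the inducible HSP110, read 11.03 and 11.34 in Cre+ (mice 129 and 135) and 11.30 and 11.53 in Cre- (131 and 137), with mouse 129 lowest (difference -0.23, SE 0.13, limma adjusted p = 0.586 among probe sets with 1 gene symbol). Hsp90aa1, the inducible cytosolic HSP90, was at 13.08 in mouse 129 and at 13.20 in each of the other 3. Its 2 further probe sets were also lowest in mouse 129, and its group difference lay between -0.07 and -0.05 over the 3 probe sets. Dnaja1, a J-domain partner of cytosolic HSP70, was at 12.04 and 12.23 in Cre+ and 12.15 and 12.17 in Cre-. In each of these 3 genes mouse 129 held the lowest value on the probe set that stands for it, and the groups overlapped. A second Dnaja1 probe set was also lowest in mouse 129 (difference -0.06). A probe set annotated to Dnaja1 together with Mir207 was lowest in mouse 137 instead (difference 0.05).

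The mitochondrial chaperonin genes Hspd1 (HSP60) and Hspe1 (HSP10), which share the promoter segment shown above, were also lowest in mouse 129. Hspd1 read 12.66 and 12.73 in Cre+ and 12.85 and 12.74 in Cre-, so the groups did not overlap, with a difference of -0.10 (SE 0.05, limma adjusted p = 0.512 among probe sets with 1 gene symbol). Hspe1 was at 12.53 and 12.63 against 12.64 and 12.59, and differed by -0.03 (SE 0.04). The groups overlapped in Hspe1. On the probe sets that stand for them, the remaining heat-inducible members differed between groups by at most 0.05 in either direction. The J-domain gene Dnaja4 differed by 0.03, and the small heat shock protein genes Hspb1 by -0.05 and Hspb8 by 0.05. A second Hspb1 probe set differed by -0.09, at 6.02 and 5.99 in Cre+ against 6.12 and 6.07 in Cre-, without overlap. Hspb8 was lowest in mouse 131, at 6.28 against 6.35 to 6.43 on the other arrays.

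**Figure D3:**
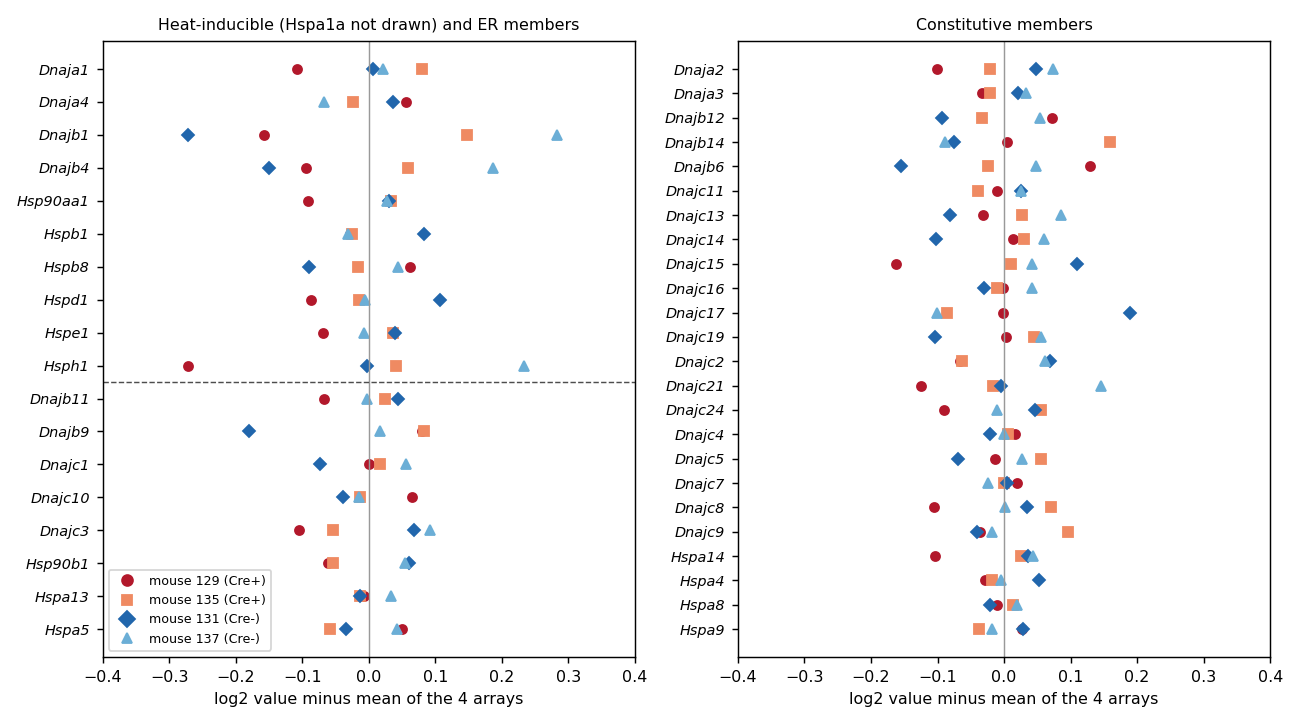
Log2 value on each array minus the gene's mean over the 4 arrays, with heat-inducible (above the dashed line) and ER members on the left and constitutive members on the right; Hspa1a is left out because mouse 131 lies off the scale, and Dnajc1 is drawn with the ER members. Dnajb1, Dnajb4 and Hsph1 spread the most, Hspa8, Dnajc4 and Dnajc7 the least.

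The constitutive HSP70 genes Hspa8 and Hspa9 spanned less than most members. Hspa8, the constitutive cytosolic HSC70, read 13.70 and 13.72 in Cre+ and 13.69 and 13.73 in Cre-. It spanned 0.04 over the 4 arrays, and its difference was 0.00 (SE 0.02). Mitochondrial HSP70, Hspa9, was at 12.27 and 12.21 against 12.27 and 12.23 and spanned 0.06. Hspa14, the ribosome-associated member, was at 10.12 and 10.25 against 10.26 and 10.26, with mouse 129 lowest, a range of 0.15 and groups that did not overlap (difference -0.08, SE 0.07). The constitutive HSP110 Hspa4 was at 11.99 and 12.00 against 12.08 and 12.02, a difference of -0.05 (SE 0.04) with groups that did not overlap. The related Hspa4l was at 9.34 and 9.66 against 9.37 and 9.49, and the groups overlapped. The HSP70 genes mostly known from other tissues, Hspa1l, Hspa2, Hspa12a and Hspa12b, differed by 0.04, 0.07, 0.10 and -0.06, none beyond limma's threshold. Hspa1l, which lies next to Hspa1a, read 5.48 in mouse 131, against 5.59 to 5.65 elsewhere.

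Only 2 of the 70 members had an unadjusted p under 0.05, a smaller share than the 6.86% of all genes. Both act in the ER, and both were lower in Cre+. Hsp90b1, which encodes GRP94, the HSP90 of the ER, read 12.02 and 12.03 in Cre+ and 12.14 and 12.14 in Cre-. The groups did not overlap, the mice of each group differed by under 0.01, and the difference was -0.12 (SE 0.03, limma unadjusted p = 0.0131). Dnajc3, which encodes the ER J-domain protein p58IPK, was at 10.60 and 10.65 against 10.77 and 10.79, a difference of -0.16 (SE 0.05, limma unadjusted p = 0.0276). A second Dnajc3 probe set holds identical values and adds no measurement. Neither passed adjustment among probe sets with 1 gene symbol (limma adjusted p = 0.25 for Hsp90b1 and 0.359 for Dnajc3). With each mouse left out in turn the difference was -0.12 to -0.11 in Hsp90b1 and -0.19 to -0.13 in Dnajc3. Leaving out a mouse moves the difference only by part of a gap between mice of one group. A small p goes with small gaps, so these narrow ranges add no support. Both fold changes are small, 1.08-fold and 1.12-fold.

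The other 6 ER members had no unadjusted p under 0.05. Hspa5, which encodes BiP, the ER HSP70, was at 12.29 and 12.18 in Cre+ and 12.21 and 12.29 in Cre- (difference -0.01, SE 0.05), and its promoter also holds the ER stress element. Dnajb9, an ER J-domain protein induced by unfolded proteins, was at 11.25 and 11.25 against 10.99 and 11.19. It was higher in both Cre+ mice by a mean of 0.16 (SE 0.08, limma adjusted p = 0.501 among probe sets with 1 gene symbol), with mouse 131 the lowest. Dnajc10, a J-domain protein with disulfide reductase activity, differed by 0.05, Dnajc1 by 0.02, Hspa13 by -0.02 and Dnajb11, a BiP cofactor, by -0.04. Over the 8 members 3 means were higher and 5 lower in Cre+, with a median of -0.01.

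The wider unfolded protein response list was measured for all 18 of its genes. None passed limma's adjusted threshold in either test. In limma 5 of the 18 had an unadjusted p under 0.05, all lower in Cre+, against 6.86% of all genes. Values of the groups did not overlap for 44.4% of the list, 1 gene higher and 7 lower in Cre+, against 36.4% of all genes. The ER protein Sdf2l1, which works with BiP, read 11.54 and 11.53 in Cre+ and 11.69 and 11.74 in Cre-. The disulfide isomerase gene Pdia4 was at 11.79 and 11.80 against 11.93 and 11.96, and Pdia6 at 10.29 and 10.38 against 10.54 and 10.49. In each of these 3 genes the groups did not overlap, with differences of -0.18, -0.16 and -0.18. The other 2 were Hyou1, the HSP110-like protein of the ER, and the stress sensor gene Atf6, with differences of -0.21 and -0.29. The list's median was -0.03, against -0.01 over all genes, moving to -0.11 with mouse 131 left out and to -0.00 with mouse 137 left out. Of 15 genes of this list with a promoter window, Calr, Canx, Creld2 and Pdia6 held the ER stress element.

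Of the 45 J-domain genes none passed, and 1, Dnajc3, had an unadjusted p under 0.05. The 8 members named next had the smallest p outside the groups above. Dnaja2, a constitutive cytosolic J-domain partner of HSP70, was at 11.24 and 11.32 in Cre+ and 11.39 and 11.42 in Cre-, a difference of -0.12 (SE 0.05). Dnajc2, the J-domain protein of the ribosome-associated complex, was at 9.76 and 9.76 against 9.90 and 9.89 (-0.13, SE 0.06). Neither overlapped between groups. Dnajb13, a gene of sperm and ciliary axonemes, had the largest difference of the J-domain genes in size, at 6.22 and 6.14 against 6.39 and 6.42 (-0.22, SE 0.09).

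The remaining 5 of these 8 differed by 0.16 or less. The mitochondrial import factor gene Dnajc15 differed by -0.15, Dnajc21, which acts in ribosome maturation, by -0.14, and the clathrin-uncoating auxilin gene Dnajc6 by -0.14. Dnajb14, an ER membrane J-domain protein, was classed as constitutive and is not counted among the ER members above. Dnajb14 and Dnajc28 were each higher by a mean of 0.16 and did not overlap. Their adjusted p in limma's test among probe sets with 1 gene symbol lay between 0.553 for Dnajc15 and 0.777 for Dnajc21. Probe set choice matters for Dnajb6. Its own probe set read between 7.55 and 7.83, while 4 probe sets annotated to Dnajb6 together with Gm4247 read between 11.80 and 12.36. All of these differed by 0.11 or less between the groups. For Dnajb14, 2 probe sets annotated together with Pin4 ran the other way, at -0.08 each. For Hspa8, 2 probe sets shared with the intronic Snord14c and Snord14d were lowest in mouse 131, at 10.29 each, against 10.56 to 10.72 on the other arrays. Dnajc13, an endosomal J-domain protein, had 15 probe sets, with differences between -0.09 and 0.07.

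The 8 small heat shock protein genes, whose products hold unfolded proteins without ATP, ranged in difference from -0.09 to 0.06 when every probe set is counted. Hspb11, which is also known as an intraflagellar transport subunit, read 8.96 and 9.19 in Cre+ mice against 9.16 and 9.10. Hspb6 was at 8.94 and 8.95 against 8.91 and 8.86, without overlap and with a difference of 0.06 (SE 0.08). No small heat shock protein gene had an unadjusted p under 0.05 in limma.

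Genes that work with the chaperones were compared next. Hsf1 was not analysed here. Its relative Hsf2 was at 9.26 and 9.40 in Cre+ and 9.45 and 9.38 in Cre-, and Hsbp1, which binds HSF1, at 11.61 and 11.64 against 11.62 and 11.55. Of 6 measured genes of this list limma called 0 in either test, and 0 reached an unadjusted p under 0.05. Hsf5 differed by -0.04.

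Among 11 measured HSF1 targets outside the families, limma called 0 and gave 1 an unadjusted p under 0.05. This was Zfand2a, an arsenite- and heat-induced proteasome partner, at 12.49 and 12.56 in the Cre+ mice, 11.99 in mouse 131 and 12.36 in mouse 137 (difference 0.35, SE 0.12). Bag3, the stress-induced HSP70 co-chaperone, was at 7.71 and 7.86 in Cre+, 7.38 in mouse 131 and 7.71 in mouse 137. Both were lowest in mouse 131, with differences of -0.48 and -0.38 from the mean of the other 3. Ppid, a cyclophilin partner of HSP90, was highest there instead, at 11.40 against 11.31, 11.02 and 11.27 in mice 137, 129 and 135. Cacybp differed between groups by -0.07. This list's array with the lowest value was mouse 129 for 7 genes and mouse 131 for 2. Bag3, Chordc1, Stip1, Ahsa1, Fkbp4, Cacybp and Ppid are also counted among the co-chaperones below, so the 2 lists are not separate observations.

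Immediate early genes, which like Hspa1a respond within minutes to handling and signalling, were low in mouse 131. Of 26 measured genes 20 had their lowest value there, against 24.3% of all genes, and 10 were more than 0.5 below the other arrays. None passed limma's adjusted threshold in either test. In limma 4 of the 26 had an unadjusted p under 0.05, all higher in Cre+, against 6.86% of all genes. Means were higher in Cre+ for 24 of the 26, against 45.9% of all genes, and for 17 with mouse 131 left out. Values of the groups did not overlap for 13 (50%), all higher in Cre+, against 16.1% of all genes. Nr4a1, a nuclear receptor gene induced by receptor signals, was at 10.71 and 10.51 in Cre+, 9.09 in mouse 131 and 10.11 in mouse 137. Jun and Fos, the AP-1 subunits, were at 11.04 and 7.64 in mouse 131. On the other arrays Jun was between 11.58 and 11.71 and Fos between 8.21 and 8.32. Egr1 read 8.21 in mouse 131 and 8.47 to 8.74 elsewhere. The list's median difference between groups was 0.24, against 0.08 with mouse 131 left out and 0.47 with mouse 137 left out. Ier2 was likewise lowest in mouse 131, at 7.92 against 8.30 to 8.66, while Ier3 was lowest in mouse 137, at 6.02.

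The part of this early response in the Hspa1a value of mouse 131 was not tested. Marker lists of other cell types had means on the 4 arrays of 6.10 to 6.44 for B cells, 5.81 to 6.07 for macrophages, 6.18 to 6.36 for erythroid cells, 6.78 to 6.90 for thymic epithelium and 5.63 to 5.80 for natural killer cells. Nkg7 read 8.88 and 8.91 in Cre+ and 10.03 and 9.85 in Cre-. Nkg7 was lower and the macrophage marker Lyz2 higher in Cre+ among probe sets with 1 gene symbol (limma adjusted p = 0.00114 and 0.0206), and their part in the chaperone values was not tested. Each was the only marker of its list to pass, in a test that 1.22% of probe sets passed. Of the 7 natural killer markers 4 means were higher and 3 lower in Cre+, and of the 9 macrophage markers 7 were higher and 2 lower. The median of mouse 131 relative to the other 3 was -0.11 over 7 B cell markers, -0.06 over 9 macrophage markers, 0.13 over 5 erythroid markers, 0.03 over 8 thymic epithelial markers and 0.04 over 7 natural killer markers. It was -0.44 over the immediate early genes and 0.01 over all genes. By the median, the array that stood apart in B cell markers was mouse 137, which had the highest Hspa1a. Its median B cell marker deviation was 0.39, with Ms4a1 at 5.77 against 4.76 to 5.13 on the other arrays, and the part of this in the Hspa1a gap was not tested. Input RNA cannot be compared between mice, since the labelled amounts carry codes and no mouse numbers.

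A different array was low for the general folding machinery. Of 15 genes of the cytosolic chaperonin TRiC and its partner prefoldin 12 had their lowest value in mouse 129, as did 18 of 29 HSP70 and HSP90 co-chaperones, against 26.4% of all genes. The TRiC subunit gene Cct5 was at 12.26 and 12.33 in Cre+ and 12.39 and 12.38 in Cre-, and Tcp1 at 12.45 and 12.55 against 12.65 and 12.57. Pfdn5, a prefoldin subunit, ran the other way, at 11.20 and 11.31 against 11.13 and 11.13. Of the co-chaperones, Hspbp1, which removes nucleotide from HSP70, was at 10.96 and 10.96 against 11.04 and 11.11, and the nucleotide exchange factor Bag2 at 8.76 and 8.88 against 9.04 and 9.00. Limma called none of either list, and at an unadjusted p under 0.05 there were 0.

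Means were lower in Cre+ for 25 of the 29 co-chaperones, with a median of -0.05, and for 13 of the 15 TRiC and prefoldin genes, also with a median of -0.05, against -0.01 over all genes. Without mouse 129 these medians were -0.00 and -0.01, with 13 of 29 and 7 of 15 means higher. Without mouse 131 they were -0.06 and -0.03, with 7 of 29 and 6 of 15 means higher. Without mouse 135 they were -0.08 and -0.10, and without mouse 137 -0.06 and -0.10. Both shifts were thus smallest without mouse 129, and that of TRiC and prefoldin was also smaller without mouse 131. With arrays centred on their medians 13 co-chaperones (44.8%) and 11 TRiC and prefoldin genes (73.3%) were lowest in mouse 129, against 20.9% of all genes. Mitochondrial folding and protease genes (11 measured) had a median of -0.03, with 0 calls and 0 genes at an unadjusted p under 0.05 in limma. Htra2, Spg7 and Trap1, the mitochondrial HSP90, differed by -0.13, -0.18 and -0.09.

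**Figure D4:**
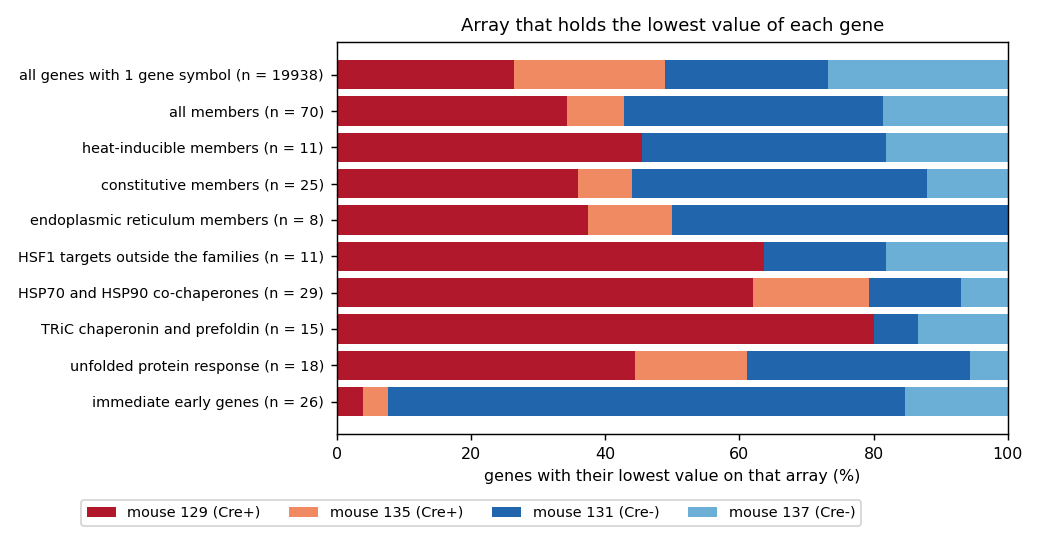
Share of genes in each list (%) whose lowest value fell on each of the 4 arrays, with the number of measured genes beside the list. Lists share genes, as most HSF1 targets drawn are also co-chaperones and the classes are parts of all members. Immediate early genes were lowest in mouse 131 in 76.9% of cases and TRiC and prefoldin genes in mouse 129 in 80.0%, while all genes divide between 22.4% and 26.9%.

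Over all 70 members 24 were lowest in mouse 129, 27 in mouse 131, 13 in mouse 137 and 6 in mouse 135. With centred arrays these counts were 20, 21, 18 and 11 of the 70, against 20.9%, 21.3%, 33.9% and 24.0% of all genes. The SD of the difference between the 2 Cre- arrays was 0.49 over the 70 members and 0.15 without Hspa1a. The median absolute difference between these arrays was 0.08 for the members and 0.09 for all genes, and between mice 129 and 131 it was 0.11 and 0.09.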

How the data were processed

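DN4 cells of 2 Cre+ and 2 Cre- mice, grouped by their titles, were measured on 1 array each. The authors deposited 1 log2 value per probe set and array, computed with RMA according to the submitters' processing notes. That the scale is log2 was inferred from the range, 3.14 to 14.4. For the RMA version, any filter and the build, the answer is: not given in the sources used here. The table leaves 0 sample columns unused. Replicates are separate mice.

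Genes were named through the platform annotation, which lists 21789 of 35556 probe sets with 1 symbol, 1621 with several and 12146 not at all. Gene numbers of all 70 members were found in RefSeq, with 0 symbols changed. Of these members 8 had several probe sets.

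All probe sets were fitted with limma 3.58.1 in R 4.3.3 (lmFit, eBayes with an intensity trend, 2 residual and 2.99 prior degrees of freedom) and adjusted by Benjamini-Hochberg over all probe sets, or over those with 1 symbol, at 0.05. Differences are Cre+ minus Cre- with the moderated standard error of the fit over all probe sets, unless stated. This holds also where the adjusted p beside it comes from the fit on probe sets with 1 gene symbol, which has its own standard error. The fit was also run on simulated data without sex or array effects, with planted shifts far larger than the members' median difference. That run therefore does not show how the fit performs on these data. Deviations set an array against the mean of the other 3, with 0.5 on the log2 scale as the limit. The members, classes and gene lists were chosen with earlier results of these data known. Named were all heat-inducible, HSP70, HSP110, HSP90, chaperonin and ER members, the 8 others with the smallest p, and, from each further list, the 3 genes with the smallest p, plus Bag3, Hsf2, Nr4a1, Fos, Jun and Egr1. Atf6, Hyou1, Dnajb6, Dnajc13, Hspb6, Hspb11, Ms4a1 and the genes low in mouse 131 were chosen after their values were seen. Alternatives were leaving out each mouse, centring, quantile normalization, cyclic loess, a filter at the 25th percentile, eBayes without trend or robust, array weights, sex as a block (read from Xist and Kdm5d) and the mean over a gene's probe sets. Those for lists outside the members, and the counts of lowest arrays by normalization, were added after seeing the data, as were differences within each sex.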

Additional observations from a re-analysis of the deposited data

How the results depend on the processing

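Over the 13 alternatives no member passed limma's test over all probe sets, and none passed among probe sets with 1 gene symbol except Hspa1a without mouse 137, where mouse 131 alone is the Cre- arm and the Cre+ pair alone supplies the spread. The count of members called in that restricted test thus ranged from 0 to 1 when each mouse was left out. Leaving out each mouse in turn moved the median difference from -0.113 to 0.00705 for heat-inducible, from -0.0321 to 0.0100 for constitutive and from -0.0206 to 0.0128 for all members, so that each changed sign. For Hspa1a it gave -0.54 to 3.40, with -0.54 and the direction turned without mouse 131. Of 36 named members 19 changed sign at least once, in 28 of 468 alternative fits, and Hspa1a was the only one in which both values exceeded their SE, the condition for calling a direction turned. The cause was not tested. Under the other 7 settings run for them the 3 medians stayed below 0. Over all probe sets 0 were called, but 10 were with centred arrays and 25 with the filter at the 25th percentile. Among probe sets with 1 gene symbol 266 were called, between 130 without a trend and 565 with sex as a block. The mouse numbers pair no mice. Sex as a block does pair them, 1 Cre+ with 1 Cre- mouse in each sex, and it called 0 members. The 2 arrays per group limit every value.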
